A study of Mus musculus with 32 samples.

Results

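A genotype-by-diet interaction was tested in CD206+ adipose tissue macrophages, that is, whether the difference between A20-deficient and wild-type cells depended on what the mice ate. All 16 libraries labelled CD206+ were used, of 32 libraries in the series, and the other 16 came from CD11c+ macrophages. The cells had been sorted as CD206-high, CD11c-low macrophages from epididymal fat, and the mice were C57BL/6J. There were 4 groups with 4 libraries each: A20myel-KO mice after 12 weeks of high-fat diet (KO HFD), wild-type mice after the same diet (WT HFD), A20myel-KO mice after 12 weeks of standard diet (KO SD) and wild-type mice on standard diet (WT SD). The genotype label reads myeloid-specific knockout of A20. In published work on mice of this name the deletion is driven by Cre from the Lyz2 locus, which is active in macrophages, neutrophils and part of the monocytes. The sources used here give no ages, no number of mice behind a library and no word on pooling, so p-values measure the spread between libraries.

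Tnfaip3 encodes A20, which edits ubiquitin chains on signalling proteins and so limits NF-kB activity and cell death downstream of TNF receptors and Toll-like receptors. Fat tissue holds resident macrophages that carry CD206 (Mrc1) and scavenger and lectin receptors such as CD163, LYVE1 and the CD209 family. In obesity a further macrophage state expands, the lipid-associated macrophage, which expresses TREM2, GPNMB, CD9, lipoprotein lipase and many lysosomal genes and is known for clustering around dying adipocytes.

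Levels are given as CPM, the read count of a gene scaled to 1e6 reads of its library. The interaction of a gene is the KO-against-WT log2 difference on HFD minus the same difference on SD, which equals the HFD-against-SD log2 difference in KO cells minus that in WT cells. A negative interaction arises, for example, where HFD raised a gene in WT cells and not in KO cells. The genotype label was borne out at Tnfaip3 (chr10:19000910-19015410, GRCm38), which had 189, 227, 175 and 299 CPM in KO HFD, 919, 708, 732 and 835 CPM in WT HFD, 255, 287, 327 and 227 CPM in KO SD and 678, 687, 763 and 503 CPM in WT SD libraries. Every KO library lay below every WT library, and the KO libraries kept a remainder of transcripts. The KO-against-WT log2 difference was -1.84 ± 0.17 (SE, adjusted p = 4.98e-07) on HFD and -1.26 ± 0.16 (SE, adjusted p = 2.78e-05) on SD, and the interaction of -0.58 ± 0.23 (SE, adjusted p = 0.105) did not pass. Without KO HFD replicate 4 it passed, at -0.76 with adjusted p = 0.0216.

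The sorted identity was present in all 16 libraries. Mrc1, which encodes CD206 (chr2:14229414-14332023), had 1623, 1616, 1394 and 1533 CPM in KO HFD, 1573, 1321, 1469 and 1634 CPM in WT HFD, 1656, 1909, 1704 and 1384 CPM in KO SD and 1730.3, 1702, 2149 and 2223 CPM in WT SD libraries. WT SD lay above both HFD groups and overlapped KO SD, and its interaction of 0.27 ± 0.16 (SE, adjusted p = 0.278) did not pass. Csf1r, the receptor for the macrophage growth factor CSF1, averaged 4136 ± 150.2 CPM in KO HFD, 3941 ± 205.97 in WT HFD, 4075 ± 229 in KO SD and 4527 ± 640.2 in WT SD cells (SD, n = 4 each). Lyz2 (chr10:117277541-117282272), which encodes lysozyme and whose locus carries the Cre in the published line, had 11241, 12552, 8505 and 12359.6 CPM in KO HFD, 11116, 12952, 13722 and 13095 CPM in WT HFD, 11913, 8699, 10215 and 11763 CPM in KO SD and 15668, 14993, 10832 and 11759 CPM in WT SD libraries, with overlapping groups and an interaction of 0.13 ± 0.21 (SE, adjusted p = 0.717). The libraries held 17619638 to 22008174 gene counts, with 14994 to 15689 genes detected and scaling factors between 0.947 and 1.06.

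The interaction passed for 1855 of 13152 genes tested, or 14.1%, with 891 positive and 964 negative (edgeR quasi-likelihood test, Benjamini-Hochberg adjusted p under 0.05 over all genes tested). Most of it lay in how the WT cells differed between diets. HFD against SD in WT cells passed for 4024 genes (30.6%), 1969 higher and 2055 lower on HFD. HFD against SD in KO cells passed for 0 genes by edgeR (0% of those tested, smallest adjusted p = 0.191). In KO cells 1073 genes had an unadjusted p under 0.05, limma-voom called 0, DESeq2 called 36, and leaving out KO SD replicate 1 gave 6 edgeR calls. Among the 1855 genes the diet difference passed in WT cells for 1746. Their median absolute diet difference on the log2 scale was 0.14 in KO cells and 0.81 in WT cells, and over all genes tested it was 0.12 in KO cells and 0.27 in WT cells. The median standard error of that difference was 0.14 in KO cells and in WT cells.

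Of the first 2 principal components of log2 CPM, component 1 separated the genotypes, and component 2 separated the diets in WT cells. Component 1 held 36.7% of the variance and component 2 held 23.8%. On component 1 the groups averaged -31.1 ± 4.10 (KO HFD), 45.8 ± 8.997 (WT HFD), -40.4 ± 5.91 (KO SD) and 25.8 ± 4.28 (WT SD; SD, n = 4 each). There the KO HFD libraries (-34.8 to -25.3) and KO SD libraries (-47.1 to -32.7) overlapped only at their edges. On component 2 they averaged 4.99 ± 9.44 (KO HFD), 35.3 ± 12.2 (WT HFD), 4.17 ± 11.9 (KO SD) and -44.5 ± 2.85 (WT SD). On component 2 the KO HFD libraries (-3.11 to 14.8) and KO SD libraries (-3.59 to 21.6) overlapped, while the WT HFD libraries (18.4 to 47.4) and WT SD libraries (-47.5 to -41.8) did not. KO SD replicate 4, at 21.6, lay above WT HFD replicate 2, at 18.4.

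**Figure D1:**
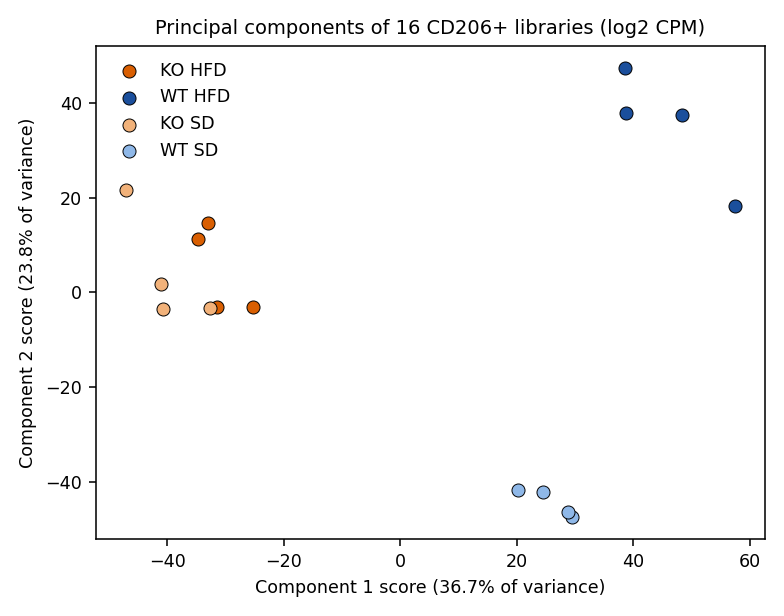
Scores of the 16 CD206+ libraries on the first 2 principal components of log2 CPM, 1 point per library, coloured by group. The KO HFD and KO SD points intermingle on component 2 around 4.99 and 4.17, and WT HFD and WT SD lie apart on it at means of 35.3 and -44.5.

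**Figure D2:**
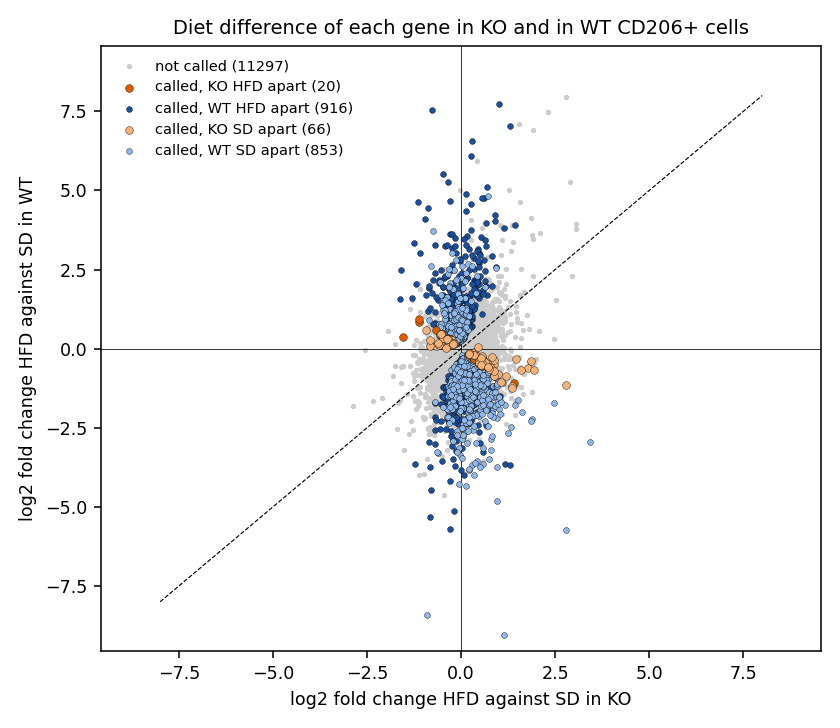
Log2 fold change of HFD against SD for each of the 13152 genes, in KO cells (horizontal) and WT cells (vertical), with the 1855 genes whose interaction passed coloured by the group that stood apart. The coloured points spread along the vertical axis, where WT cells differ between diets, with a median absolute difference of 0.81 there and 0.14 on the horizontal axis. The dashed line marks equal differences.

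Each of the 1855 genes was sorted by the group whose mean log2 CPM lay farthest from the mean of the other 3 groups. A WT group was the one apart for 1769 of them (95.4%), and a KO group for 86. Among all genes tested a WT group was the one apart for 73.3%. WT HFD was highest-apart for 527 genes and lowest-apart for 389. WT SD was highest-apart for 454 and lowest-apart for 399. KO HFD was high for 9 and low for 11, and KO SD was high for 27 and low for 39. The sorting was clear, meaning that the other 3 groups ranged over less than 0.5 of that distance, for 1001 genes: 346 WT HFD high, 209 WT HFD low, 222 WT SD high, 209 WT SD low, and 15 in which a KO group stood apart. The remaining 854 were mixed. In the gene lists below, counts by the group apart take clear and mixed genes together. Each list's interaction counts are to be read beside the shares over all genes tested, 6.77% positive and 7.33% negative. For 1021 of the 1855 genes both KO means lay between the WT means, for 217 both lay above them and for 245 both lay below them.

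Genes that WT HFD cells held at a high level, apart from the other 3 groups, included the leading genes of the lipid-associated state. Of 32 tested members of a lipid-associated macrophage list, 23 had a negative interaction and 0 a positive one, with a median interaction of -0.999. The median over all genes tested was 0.02, with 7.33% of genes negative and 6.77% positive. WT HFD was the group apart, and high, for 21 of the 23. Gpnmb (chr6:49036518-49058182), which encodes a lysosome-associated glycoprotein of lipid-loaded macrophages, had 8.65, 66.1, 9.90 and 12.5 CPM in KO HFD, 356, 954, 549 and 767 CPM in WT HFD, 4.33, 14.6, 3.57 and 17.2 CPM in KO SD and 6.41, 3.95, 4.18 and 5.37 CPM in WT SD libraries. All WT HFD libraries lay above all others, and KO HFD replicate 2 lay above the other KO HFD libraries. Its interaction was -5.75 ± 0.90 (SE, adjusted p = 4.78e-04). In bulk sorted cells, a smaller share of cells in a state and less RNA of its genes per cell cannot be told apart.

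Trem2 (chr17:48346401-48352276), a lipid-sensing receptor of myeloid cells, had 60.9, 56.8, 46.9 and 65.9 CPM in KO HFD, 359, 337, 311 and 331 CPM in WT HFD, 40.6, 48.8, 31.8 and 51.99 CPM in KO SD and 81.7, 72.4, 68.5 and 89.02 CPM in WT SD libraries. The WT HFD libraries stood above every other library, and WT SD lay above both KO groups. Its interaction was -1.69 ± 0.19 (SE, adjusted p = 3.80e-05). Spp1 (chr5:104435111-104441053), which encodes osteopontin, had 4.38, 5.79, 1.19 and 5.95 CPM in KO HFD, 102, 56.8, 63.9 and 99.9 CPM in WT HFD, 2.01, 7.10, 1.41 and 11.6 CPM in KO SD and 1.91, 2.62, 1.13 and 2.65 CPM in WT SD libraries, with WT HFD alone above 12 CPM. Its interaction was -5.63 ± 0.77 (SE, adjusted p = 1.56e-04). Lpl (chr8:68880555-68906932), lipoprotein lipase, which frees fatty acids from triglyceride-rich particles, had 749.9, 832, 458 and 1235 CPM in KO HFD, 3801, 2743, 2361 and 3143 CPM in WT HFD, 1037, 1157, 929.6 and 1405 CPM in KO SD and 852, 399, 742 and 581 CPM in WT SD libraries. WT HFD lay above all other libraries here too, and the KO-against-WT difference was -1.88 ± 0.27 (SE, adjusted p = 5.39e-05) on HFD and 0.82 ± 0.26 (SE, adjusted p = 0.0262) on SD. Its interaction was -2.69 ± 0.37 (SE, adjusted p = 1.62e-04).

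Itgax (chr7:128129526-128150657), which encodes CD11c and was used to sort cells as low, had 3.76, 4.34, 1.70 and 4.43 CPM in KO HFD, 21.2, 51.5, 30.2 and 38.4 CPM in WT HFD, 2.68, 4.79, 2.82 and 8.77 CPM in KO SD and 6.22, 3.38, 4.04 and 1.30 CPM in WT SD libraries. The WT HFD libraries were the only ones above 10 CPM, with an interaction of -3.65 ± 0.62 (SE, adjusted p = 9.15e-04). Further members of the list with WT HFD high included Ctsk, a collagen-degrading cathepsin, at -4.75 (adjusted p = 3.92e-05), Cd9, a tetraspanin, at -2.102 (adjusted p = 5.56e-04), and Lgals3, galectin 3, at -1.37 (adjusted p = 7.40e-05). Anpep, aminopeptidase N, averaged 38.9 ± 6.50 CPM in KO HFD, 119.9 ± 11.5 in WT HFD, 46.2 ± 6.11 in KO SD and 48.1 ± 1.74 in WT SD cells (SD, n = 4 each), with an interaction of -1.56 ± 0.16 (SE, adjusted p = 2.36e-05). Fabp5, a fatty acid carrier, had an interaction of -1.55 (adjusted p = 0.0172). In 2 list members, Mitf and Cstb, it was WT SD that stood apart, on the low side.

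Outside the list, the smallest p-values of clear WT HFD high genes with a gene name belonged to Cdk18, Igf2bp2, Cadm1 and Dcbld2. Cdk18 (chr1:132113547-132139698), a cyclin-dependent kinase of the PCTAIRE family, had 2.90, 3.59, 3.35 and 2.90 CPM in KO HFD, 56.9, 64.5, 46.5 and 64.8 CPM in WT HFD, 1.65, 1.71, 2.54 and 2.08 CPM in KO SD and 4.46, 4.09, 3.45 and 2.94 CPM in WT SD libraries. WT HFD lay more than 10 times above every other library, and the interaction was -3.29 ± 0.23 (SE, adjusted p = 7.55e-07). Igf2bp2 (chr16:22059009-22163299), an RNA-binding protein, had 2.04, 2.04, 1.88 and 3.66 CPM in KO HFD, 39.3, 26.2, 21.996 and 36.2 CPM in WT HFD, 2.94, 2.27, 2.87 and 3.88 CPM in KO SD and 1.13, 1.19, 1.62 and 0.904 CPM in WT SD libraries. Here KO SD lay above WT SD in every library, so the genotype difference was -3.68 (adjusted p = 2.60e-08) on HFD and 1.29 (adjusted p = 0.00221) on SD, with an interaction of -4.97 (adjusted p = 7.74e-07). Cadm1 (chr9:47530170-47862280), a cell adhesion molecule, had 13.99, 17.4, 9.58 and 20.7 CPM in KO HFD, 176, 107, 99.8 and 125 CPM in WT HFD, 16.7, 20.3, 18.2 and 18.2 CPM in KO SD and 14.5, 11.2, 16.8 and 14.01 CPM in WT SD libraries, with WT HFD above all others and an interaction of -3.42 (adjusted p = 4.14e-06). Dcbld2 (chr16:58408535-58469745), a neuropilin-like membrane protein, had 21.01, 15.98, 19.4 and 20.2 CPM in KO HFD, 45.5, 43.99, 36.6 and 49.2 CPM in WT HFD, 25.4, 25.7, 25.4 and 23.5 CPM in KO SD and 15.6, 15.6, 19.7 and 17.6 CPM in WT SD libraries, with KO SD above WT SD and an interaction of -1.74 (adjusted p = 4.79e-06).

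By size, the negative interactions were led by Nrcam, Pcdh7, Dhrs9, Gpnmb and Spp1. Pcdh7, a protocadherin, averaged 2.37 ± 1.60 CPM in KO HFD, 66.5 ± 21.3 in WT HFD, 1.997 ± 1.14 in KO SD and 0.983 ± 0.417 in WT SD cells, and Dhrs9, a retinol dehydrogenase, averaged 0.458 ± 0.28 CPM in KO HFD, 32.7 ± 12.8 in WT HFD, 1.01 ± 0.373 in KO SD and 1.32 ± 0.287 in WT SD cells (SD, n = 4 each). Both stayed under 5 CPM in every library outside WT HFD. Nrcam, a neuronal adhesion molecule, averaged 0.257 ± 0.133 CPM in KO HFD, 19.5 ± 11.7 in WT HFD, 0.384 ± 0.609 in KO SD and 0.408 ± 0.535 in WT SD cells. Its call was lost without KO SD replicate 4 (adjusted p = 0.204) and by limma-voom.

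Lysosomal genes were also in this class. Of 45 tested, 16 had a negative interaction and 1 a positive one, with a median of -0.24, and WT HFD was high and apart for 12. The lipid-associated and lysosomal lists share members, such as Atp6v0d2, and together held 34 different genes with a negative interaction. Atp6v0d2 (chr4:19876838-19922566), a subunit of the proton pump that acidifies lysosomes, had 9.26, 23.9, 14.4 and 13.04 CPM in KO HFD, 234, 302, 197 and 293 CPM in WT HFD, 12.2, 14.1, 9.41 and 14.7 CPM in KO SD and 16.01, 24.3, 16.5 and 19.1 CPM in WT SD libraries. WT HFD was the only group above 30 CPM, and the interaction was -3.49 ± 0.33 (SE, adjusted p = 1.03e-05). The pump subunit genes Atp6v1b2 and Atp6v1a had interactions of -0.85 (adjusted p = 1.97e-04) and -1.03 (adjusted p = 0.00199). The hydrolase genes Gusb and Lipa had -0.71 (adjusted p = 4.21e-04) and -1.17 (adjusted p = 0.00217). Ctsd, cathepsin D, averaged 2395 ± 714 CPM in KO HFD, 3999.6 ± 496 in WT HFD, 1496 ± 226 in KO SD and 1246 ± 263 in WT SD cells, with an interaction of -1.003 ± 0.26 (SE, adjusted p = 0.0176). Tfeb, which encodes a transcription factor that activates lysosomal genes, had -0.42 (adjusted p = 0.0414), and its call was lost in 11 of the 16 fits that left out 1 library. The positive member was Ctsh, cathepsin H, at 0.92 (adjusted p = 0.00179), with WT HFD low.

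The promoters of Ctsd and Atp6v1a are shown because TFEB and its relatives bind an E-box, TCACGTGA, near the start sites of lysosomal genes, and these were chosen because they hold it. Each run is the 250 bases before the RefSeq start site, 5′ to 3′ on the gene's strand in GRCm38.p6, with the match in capitals. Ctsd lies at chr7:142387828-142388077, minus strand, and Atp6v1a at chr16:44139260-44139509, minus strand.
Ctsd: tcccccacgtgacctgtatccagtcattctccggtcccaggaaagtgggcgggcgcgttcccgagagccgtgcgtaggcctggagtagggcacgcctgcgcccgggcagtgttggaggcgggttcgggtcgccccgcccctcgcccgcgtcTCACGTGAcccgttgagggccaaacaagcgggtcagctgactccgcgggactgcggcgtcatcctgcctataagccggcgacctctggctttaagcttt
Atp6v1a: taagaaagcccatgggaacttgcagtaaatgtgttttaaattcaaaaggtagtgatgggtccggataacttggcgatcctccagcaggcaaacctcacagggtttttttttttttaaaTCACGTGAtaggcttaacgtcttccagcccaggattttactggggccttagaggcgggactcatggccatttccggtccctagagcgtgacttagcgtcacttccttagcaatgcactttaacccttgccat
The letters occur 99 bases before the Ctsd start and 132 bases before the Atp6v1a start, counted from the first letter of the match. Searched on both strands, which read alike for this palindrome, TCACGTGA was found in 258 of 32851 such windows (0.785%). Of 34 lipid-associated or lysosomal genes with a negative interaction, 24 had a promoter entry, and 3 held it: Atp6v1a, Ctsd and Gla. A match describes letters and does not show binding.

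Cholesterol handling followed the same layout in part. Of 18 tested genes of cholesterol efflux and the nuclear receptor LXR, 8 had a negative and 2 a positive interaction, with a median of -0.16. Soat1, which esterifies cholesterol for storage, averaged 127 ± 17.2 CPM in KO HFD, 194 ± 18.7 in WT HFD, 121 ± 16.6 in KO SD and 80.3 ± 5.68 in WT SD cells (SD, n = 4 each), with an interaction of -1.20 ± 0.15 (SE, adjusted p = 8.97e-05). Nceh1, which hydrolyses the stored esters, averaged 95.4 ± 17.5 CPM in KO HFD, 256 ± 39.03 in WT HFD, 83.2 ± 10.3 in KO SD and 83.3 ± 10.1 in WT SD cells, with -1.42 ± 0.20 (SE, adjusted p = 1.62e-04). Abcg1, a cholesterol exporter, had -1.51 (adjusted p = 0.00108). Nr1h3, which encodes LXR alpha, was instead set apart by WT SD and is given below with that group. For fatty acid uptake and storage 4 of 29 were negative and 1 positive (median -0.13), and for oxidation 3 of 31 were negative and 3 positive (median 0.12). The oxidation shares were near those over all genes tested, 7.33% negative and 6.77% positive, so its members are given as single genes. Cidec, a lipid droplet protein, was the positive one among uptake and storage genes, at 2.26 (adjusted p = 0.00506). Within oxidation, Hadha and Hadhb, the subunits of the mitochondrial trifunctional protein, had interactions of -0.53 (adjusted p = 0.00277) and -0.52 (adjusted p = 0.00391), with WT HFD high. Pparg, a nuclear receptor that activates lipid genes, had -1.05 (adjusted p = 0.0326), a call lost in 6 of the 16 fits that left out 1 library.

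Of 44 cell cycle genes tested, 9 had a negative and 1 a positive interaction, with a median of -0.64, and WT HFD was high and apart for 8. Mcm6 and Mcm2, parts of the replicative helicase, had -0.75 (adjusted p = 0.00772) and -0.91 (adjusted p = 0.00858), and Pcna, the sliding clamp of DNA polymerase, had -0.49 (adjusted p = 0.0156). Among matrix proteases 5 of 18 were negative and 1 positive (median -0.83). Adam8, a membrane protease, averaged 20.8 ± 7.09 CPM in KO HFD, 245 ± 50.5 in WT HFD, 15.01 ± 4.87 in KO SD and 37.8 ± 12.01 in WT SD cells (SD, n = 4 each), with -2.22 ± 0.38 (SE, adjusted p = 9.97e-04), and Mmp2, a gelatinase, had -2.43 (adjusted p = 0.00349). Of 15 complement genes 2 were positive and 2 negative (median 0.09), beside 6.77% positive and 7.33% negative over all genes tested. They included C3ar1, the C3a receptor, at -0.49 (adjusted p = 0.0203) with WT HFD high, and Cfp, properdin, at 0.97 (adjusted p = 0.00151) with WT HFD low.

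**Figure D3:**
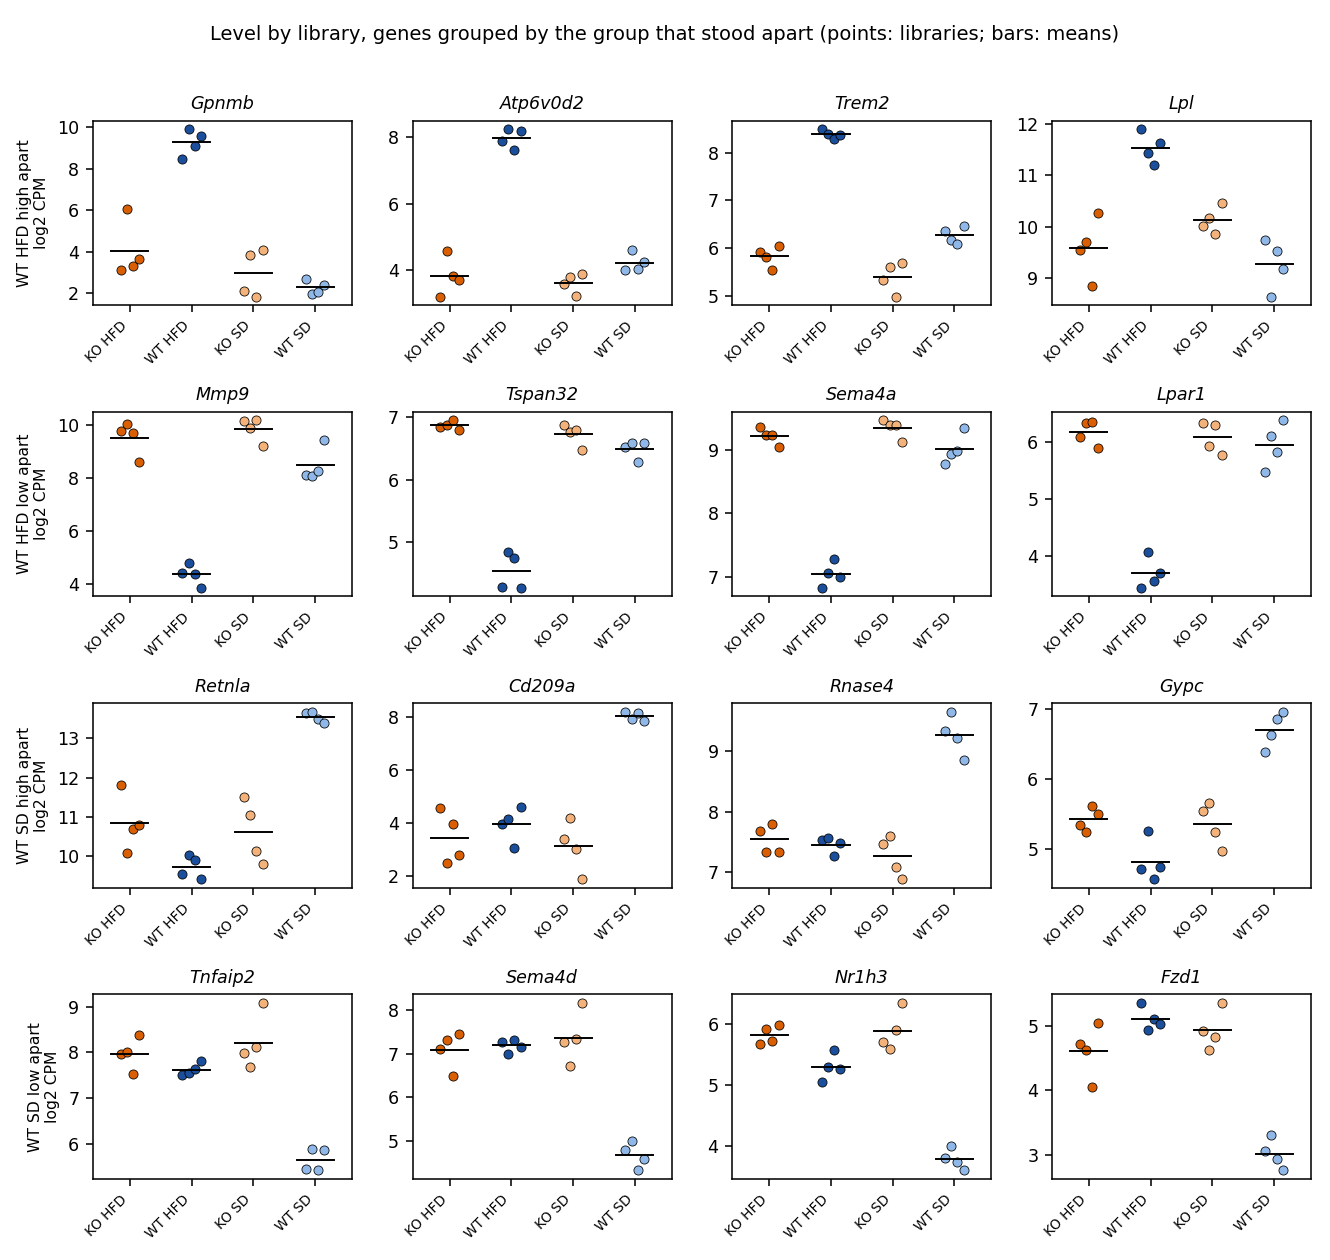
Log2 CPM in each of the 16 libraries for 4 genes of each WT-apart kind, by group, with bars at the means of 4 libraries; the rows show Gpnmb, Atp6v0d2, Trem2 and Lpl, then Mmp9, Tspan32, Sema4a and Lpar1, then Retnla, Cd209a, Rnase4 and Gypc, then Tnfaip2, Sema4d, Nr1h3 and Fzd1. In each panel all 4 libraries of 1 WT group lie apart from the other 12, while the KO HFD and KO SD points overlap.

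Genes that were clearly low in WT HFD cells were led, by p-value, by Tspan32, Sema4a, Lpar1 and Clec2i. Tspan32 (chr7:143004907-143019486), a tetraspanin of blood cells, had 115, 117, 123 and 111 CPM in KO HFD, 19.5, 28.7, 26.95 and 19.4 CPM in WT HFD, 117, 109, 110.4 and 88.5 CPM in KO SD and 91.3, 95.6, 78.1 and 96.1 CPM in WT SD libraries. WT HFD lay below every other library, with an interaction of 2.06 ± 0.17 (SE, adjusted p = 3.61e-06). Sema4a (chr3:88435959-88461182), a semaphorin that costimulates T cells, had 658, 599.7, 601 and 527 CPM in KO HFD, 113, 133, 155 and 128 CPM in WT HFD, 705, 667, 672 and 558 CPM in KO SD and 440.3, 489.7, 507 and 651 CPM in WT SD libraries. Again only WT HFD was low, with 1.85 ± 0.17 (SE, adjusted p = 8.69e-06). Lpar1 (chr4:58435252-58554027), a receptor for lysophosphatidic acid, had 68.5, 81.4, 81.7 and 59.7 CPM in KO HFD, 10.8, 16.7, 11.8 and 12.9 CPM in WT HFD, 80.5, 61.1, 79.2 and 54.97 CPM in KO SD and 44.6, 68.99, 56.7 and 83.5 CPM in WT SD libraries, with no overlap of WT HFD and the rest and an interaction of 2.36 ± 0.26 (SE, adjusted p = 3.57e-05). Clec2i (chr6:128887587-128898168), a C-type lectin-related ligand, had 34.9, 40.5, 34.3 and 40.7 CPM in KO HFD, 9.16, 10.02, 14.3 and 13.3 CPM in WT HFD, 60.01, 38.3, 39.9 and 36.6 CPM in KO SD and 52.1, 52.7, 48.5 and 53.5 CPM in WT SD libraries, and an interaction of 1.93 ± 0.22 (SE, adjusted p = 3.64e-05). Among KO SD libraries, replicate 1 stood above the others for Clec2i.

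The gelatinase gene Mmp9 (chr2:164940326-164955850) had 871, 1038, 818 and 388 CPM in KO HFD, 21.7, 27.6, 20.9 and 14.5 CPM in WT HFD, 1137, 933, 1147 and 586 CPM in KO SD and 279, 268, 307 and 695 CPM in WT SD libraries. WT HFD libraries were the lowest by more than 9 times, and KO HFD and KO SD overlapped WT SD. The KO-against-WT difference was 5.199 ± 0.39 (SE, adjusted p = 7.27e-08) on HFD and 1.30 ± 0.33 (SE, adjusted p = 0.00708) on SD, and the interaction was 3.90 ± 0.48 (SE, adjusted p = 6.51e-05). Of 15 tested MHC class II and costimulation genes, 4 were positive and 0 negative, with a median of 0.46, and WT HFD was low and apart for 3. Cd80, a costimulatory ligand, averaged 12.9 ± 2.78 CPM in KO HFD, 5.50 ± 0.386 in WT HFD, 12.9 ± 1.26 in KO SD and 13.6 ± 1.96 in WT SD cells (SD, n = 4 each), with 1.30 ± 0.21 (SE, adjusted p = 7.23e-04). H2-DMb2, a peptide-loading subunit, had 1.65 (adjusted p = 0.00898). Cd74, the invariant chain, and H2-DMa, the partner of H2-DMb, had 0.56 (adjusted p = 0.0443) and 0.62 (adjusted p = 0.0385), with WT HFD low. Those calls were lost in 12 of the 16 and 11 of the 16 fits that left out 1 library.

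Interferon-stimulated genes differed by genotype on both diets. Of 51 tested, 50 were higher in KO cells on HFD and 50 on SD, with median log2 differences of 1.91 on HFD and 1.84 on SD. The background for higher in KO was 12.5% of genes on HFD and 14.3% on SD. The list's median HFD-against-SD log2 difference was -0.43 in KO cells and -0.46 in WT cells. The interaction was positive for 6 and negative for 0, with a median of -0.00. Over all genes tested it was positive for 6.77% and passed in either direction for 14.1%, so the 6 are given as single genes. In those 6, WT HFD was the group apart and low. Ly6e, a membrane protein induced by interferon, averaged 2099 ± 193 CPM in KO HFD, 288 ± 63.9 in WT HFD, 2469 ± 117 in KO SD and 896 ± 192 in WT SD cells (SD, n = 4 each), with 1.40 ± 0.21 (SE, adjusted p = 3.33e-04). Gbp7, an interferon-inducible GTPase, averaged 143 ± 29.02 CPM in KO HFD, 30.4 ± 6.33 in WT HFD, 170.1 ± 33.6 in KO SD and 77.2 ± 7.63 in WT SD cells, with 1.09 ± 0.23 (SE, adjusted p = 0.00473). Ifi203, Oas2, Gbp3 and Mx2 had 0.62 (adjusted p = 0.0287), 0.77 (adjusted p = 0.0306), 1.07 (adjusted p = 0.0318) and 1.01 (adjusted p = 0.0391), and their calls were lost in 6, 8, 9 and 12 of the 16 fits that left out 1 library. The guanylate-binding genes are close relatives, and reads may be split between them. Of 18 MHC class I genes, 18 were higher in KO cells on each diet, and 1 had an interaction: H2-M3, a nonclassical class I molecule, at 0.41 (adjusted p = 0.0389). The H2-M3 call was lost in 10 of the 16 fits that left out 1 library.

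The Gbp7 promoter is shown because it holds the core of the interferon-stimulated response element, the site of interferon-activated factors, read here on the opposite strand. The 250 bases before its RefSeq start lie at chr3:142530086-142530335, plus strand in GRCm38.p6, with the match in capitals.
Gbp7: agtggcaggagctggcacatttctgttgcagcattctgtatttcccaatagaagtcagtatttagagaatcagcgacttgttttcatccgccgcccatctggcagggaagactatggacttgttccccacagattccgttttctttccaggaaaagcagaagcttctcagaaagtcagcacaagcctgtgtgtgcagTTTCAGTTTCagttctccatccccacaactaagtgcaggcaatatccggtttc
The match begins 53 bases before the start site. The motif was found on either strand in 978 of 32851 windows (2.98%). Of the 6 interferon genes with a positive interaction, 3 had a promoter entry (Gbp3, Gbp7 and Ifi203), and all 3 held it.

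Genes for which WT SD was the group apart, on the high side, included many of the resident macrophage. Of 36 tested members of a resident macrophage list, 22 had a positive interaction and 0 a negative one, with a median of 1.24. WT SD was high and apart for 15 of the 22, and WT HFD was low and apart for 7. Retnla (chr16:48842609-48844461), which encodes a secreted resistin-like protein of alternatively activated macrophages, had 3594, 1079, 1638 and 1780.5 CPM in KO HFD, 736, 1046, 955 and 677 CPM in WT HFD, 2891, 2123, 1117 and 883 CPM in KO SD and 12781, 13157, 11647 and 10738 CPM in WT SD libraries. WT SD lay above all other libraries, WT HFD had the lowest mean, and the KO groups overlapped each other. The KO-against-WT difference was 1.25 ± 0.35 (SE, adjusted p = 0.0145) on HFD and -2.78 ± 0.37 (SE, adjusted p = 2.93e-05) on SD, and the interaction was 4.03 ± 0.50 (SE, adjusted p = 7.58e-05).

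Cd209a (chr8:3743395-3748984), a C-type lectin receptor, had 23.7, 5.68, 15.7 and 6.99 CPM in KO HFD, 15.6, 18.02, 8.50 and 24.5 CPM in WT HFD, 10.5, 18.4, 8.23 and 3.71 CPM in KO SD and 298, 244, 285 and 236 CPM in WT SD libraries. WT SD was at least 9 times above every other library, and the interaction was 4.34 ± 0.61 (SE, adjusted p = 2.03e-04). Cd209d (chr8:3871824-3878548), a neighbouring lectin, had 36.3, 9.76, 30.3 and 8.76 CPM in KO HFD, 23.4, 30.6, 6.67 and 26.7 CPM in WT HFD, 15.3, 23.98, 10.5 and 9.89 CPM in KO SD and 273, 299.7, 313 and 295 CPM in WT SD libraries, with 4.27 ± 0.64 (SE, adjusted p = 3.33e-04). Cd209b, Cd209f and Cd209g had 3.74 (adjusted p = 0.00112), 3.08 (adjusted p = 7.15e-04) and 3.33 (adjusted p = 6.91e-04). The CD209 genes are paralogues, so the share of reads given to each is uncertain. Cd163, the receptor for haemoglobin-haptoglobin, averaged 246 ± 99.9 CPM in KO HFD, 246 ± 45.9 in WT HFD, 233 ± 101 in KO SD and 1157 ± 57.3 in WT SD cells (SD, n = 4 each), with 2.31 ± 0.40 (SE, adjusted p = 0.0011). Mgl2, a galactose-binding lectin, averaged 462 ± 142 CPM in KO HFD, 232 ± 30.2 in WT HFD, 458 ± 146 in KO SD and 1331 ± 93.01 in WT SD cells, with 2.53 ± 0.31 (SE, adjusted p = 6.17e-05). Fxyd2, a regulator of the sodium pump, had 1.80 (adjusted p = 5.90e-05). For Lyve1, the hyaluronan receptor, and Folr2, a folate receptor, WT HFD was the group apart, with interactions of 2.06 (adjusted p = 0.00418) and 1.12 (adjusted p = 0.00232). Timd4, a receptor for phosphatidylserine, had 1.89 (adjusted p = 0.0273), lost in 4 of the 16 fits that left out 1 library.

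By p-value the clear WT SD high genes were led by Ang, Rnase4, Gypc and Retnla. Ang and Rnase4 (chr14:51091077-51106151), secreted ribonucleases, overlap and share a start, so their counts may draw on the same transcripts. Rnase4 had 205.9, 162, 224 and 162 CPM in KO HFD, 185, 189, 154 and 178 CPM in WT HFD, 177, 195, 137 and 118 CPM in KO SD and 644, 805, 595 and 462 CPM in WT SD libraries, with WT SD above the rest and an interaction of 2.095 ± 0.24 (SE, adjusted p = 4.46e-05). Ang had 20.05, 17.96, 22.3 and 16.9 CPM in KO HFD, 11.2, 10.9, 10.9 and 11.5 CPM in WT HFD, 18.1, 18.3, 13.7 and 10.2 CPM in KO SD and 58.9, 60.8, 41.6 and 33.04 CPM in WT SD libraries, with 2.48 ± 0.27 (SE, adjusted p = 3.37e-05). Gypc, the red cell membrane protein glycophorin C, had 40.4, 37.6, 48.8 and 45.2 CPM in KO HFD, 26.2, 38.1, 23.7 and 26.6 CPM in WT HFD, 46.4, 50.4, 37.8 and 31.1 CPM in KO SD and 83.1, 98.5, 115 and 124 CPM in WT SD libraries. WT SD was highest and WT HFD had the lowest mean, with 1.93 ± 0.24 (SE, adjusted p = 6.62e-05). By size, Rnase2a, an eosinophil-type ribonuclease, and Mucl1, a small mucin, led. Rnase2a averaged 0.265 ± 0.302 CPM in KO HFD, 0.106 ± 0.15 in WT HFD, 0.115 ± 0.134 in KO SD and 60.7 ± 47.1 in WT SD cells (SD, n = 4 each), with a wide spread within WT SD. Mucl1 averaged 0.144 ± 0.0962 CPM in KO HFD, 0.0345 ± 0.0446 in WT HFD, 0.283 ± 0.369 in KO SD and 14.4 ± 2.44 in WT SD cells. With so few counts outside WT SD, their fitted interactions depend on the prior count and are not given. The call of Rnase2a was lost without KO HFD replicate 1 (adjusted p = 0.0937) and by limma-voom.

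Immediate early genes, which respond fast to growth factors and stress, included 6 of 34 with a positive interaction and 1 with a negative one (median 0.38). Jun, a subunit of AP-1, averaged 1157 ± 413 CPM in KO HFD, 788 ± 62.3 in WT HFD, 1195 ± 273 in KO SD and 2362 ± 302 in WT SD cells (SD, n = 4 each), with 1.54 ± 0.30 (SE, adjusted p = 0.00245). Ier2 and Egr1 had 1.20 (adjusted p = 0.00402) and 1.44 (adjusted p = 0.00909), with WT SD high, and Ier5 had 0.85 (adjusted p = 0.00394). The negative member was Rgs1, a regulator of G-protein signalling, at -1.66 (adjusted p = 0.00448). Among 25 genes of endoplasmic reticulum chaperones and the unfolded protein response, 5 were positive and 2 negative (median 0.25). Ppp1r15a, a phosphatase subunit that reverses translational arrest, had 1.03 (adjusted p = 5.19e-04). Dnajb9, a chaperone partner, had 1.16 (adjusted p = 0.00352). Atf4, a transcription factor of that response, had 0.69 (adjusted p = 0.0107). Of 22 chemokine genes 4 were positive and 2 negative (median -0.25), including Ccl24, which draws eosinophils, with 2.51 (adjusted p = 0.00163) and Cxcl12 at 2.36 (adjusted p = 6.17e-04), both highest in WT SD. Ccl6 was highest in KO HFD, at 4492 ± 725 CPM in KO HFD and 2480.3 ± 301 CPM in WT HFD cells (SD, n = 4 each), with an interaction of 1.002 (adjusted p = 0.00436).

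Genes for which WT SD was the group apart, on the low side, included several NF-kB targets. Of 39 tested targets and regulators of NF-kB, 8 had a negative and 1 a positive interaction, with a median of -0.50, beside 7.33% negative and 6.77% positive over all genes tested, and WT SD was low and apart for 7. On each diet separately, 21 of 39 were higher in KO cells on HFD, where the background was 12.5%, and 28 of 39 on SD, where it was 14.3%. Tnfaip2 (chr12:111442450-111455018), a TNF-induced gene, had 250.3, 257, 184 and 330.2 CPM in KO HFD, 180.1, 186, 198 and 225 CPM in WT HFD, 251, 203, 276 and 542 CPM in KO SD and 43.2, 58.7, 42.6 and 58.2 CPM in WT SD libraries. WT SD lay below all other libraries, and the other 3 groups overlapped. The KO-against-WT difference was 0.37 ± 0.24 (SE, adjusted p = 0.286) on HFD and 2.65 ± 0.26 (SE, adjusted p = 1.47e-06) on SD, with an interaction of -2.28 ± 0.34 (SE, adjusted p = 3.52e-04). Cflar, an inhibitor of caspase 8, had -0.70 (adjusted p = 0.00172), and Nfkb1, the p105 and p50 precursor, had -0.78 (adjusted p = 0.00506). For Nfkb1, KO cells lay below WT cells on HFD and above them on SD. Tlr2, a receptor for bacterial lipopeptides, had -0.86 (adjusted p = 0.0129). The positive member was Il6, at 2.35 (adjusted p = 0.00738). Of 20 genes of A20 and its partners, 1 was positive and 1 negative (median -0.04): Casp8, at 0.41 (adjusted p = 0.01), and Nlrp3, the inflammasome sensor, at -0.95 (adjusted p = 0.0176). These counts were near the shares over all genes tested, so both are given as single genes.

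By p-value the clear WT SD low genes were led by Fzd1, Cd22, Sema4d and Nr1h3. Fzd1 (chr5:4753839-4758216), a WNT receptor, had 26.2, 24.8, 16.6 and 32.9 CPM in KO HFD, 40.98, 30.7, 34.3 and 32.7 CPM in WT HFD, 30.4, 24.8, 28.4 and 40.7 CPM in KO SD and 8.37, 9.90, 7.68 and 6.78 CPM in WT SD libraries. Only WT SD was under 10 CPM, and the interaction was -2.39 ± 0.26 (SE, adjusted p = 3.57e-05). Cd22 (chr7:30865404-30880342), an inhibitory sialic acid receptor best known on B cells, had 10.02, 12.98, 11.5 and 10.2 CPM in KO HFD, 19.8, 11.7, 18.9 and 16.4 CPM in WT HFD, 11.3, 12.4, 12.7 and 12.5 CPM in KO SD and 2.25, 3.90, 1.03 and 2.26 CPM in WT SD libraries, with -2.94 ± 0.35 (SE, adjusted p = 5.55e-05). The summed level of 8 B cell markers, Cd22 among them and 7 of them tested, ranged over 31.2 to 51.3 CPM in KO HFD, 29.02 to 61.6 in WT HFD, 31.8 to 42.2 in KO SD and 15.5 to 25.4 in WT SD libraries. Sema4d (chr13:51685529-51793678), a semaphorin, had 138, 159, 90.01 and 176 CPM in KO HFD, 155, 128, 159.8 and 144 CPM in WT HFD, 154, 105, 163 and 288 CPM in KO SD and 27.7, 31.9, 19.9 and 23.8 CPM in WT SD libraries, with WT SD below all others and -2.84 ± 0.36 (SE, adjusted p = 7.80e-05). Nr1h3 (chr2:91184061-91202829) had 51.2, 60.5, 52.8 and 63.1 CPM in KO HFD, 33.2, 39.1, 47.6 and 38.5 CPM in WT HFD, 52.2, 48.3, 59.8 and 81.5 CPM in KO SD and 13.95, 15.997, 13.3 and 12.1 CPM in WT SD libraries. WT SD was lowest, WT HFD was next, and KO cells were highest on either diet. The difference was 0.52 ± 0.15 (SE, adjusted p = 0.0147) on HFD and 2.12 ± 0.16 (SE, adjusted p = 1.21e-07) on SD, with an interaction of -1.60 ± 0.21 (SE, adjusted p = 1.20e-04).

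Part of the glycolysis list was low in WT SD. Of 30 tested, 7 had a negative and 0 a positive interaction (median -0.27), and WT SD was low and apart for 5. Aldoa, aldolase A, averaged 505 ± 19.2 CPM in KO HFD, 482 ± 23.7 in WT HFD, 462 ± 4.88 in KO SD and 329 ± 13.9 in WT SD cells (SD, n = 4 each), with -0.42 ± 0.09 (SE, adjusted p = 0.00354). Pkm, pyruvate kinase, averaged 736 ± 77.3 CPM in KO HFD, 758 ± 58.7 in WT HFD, 666 ± 105 in KO SD and 430.4 ± 32.9 in WT SD cells, with -0.67 ± 0.15 (SE, adjusted p = 0.00716). Pdk1, which inhibits pyruvate dehydrogenase, had -1.003 (adjusted p = 0.00108). Eno2, an enolase, was instead high in WT HFD, with -2.90 (adjusted p = 2.60e-04). In contrast to these lists, 0 of 62 oxidative phosphorylation genes had an interaction that passed, with a median of 0.00. The smallest adjusted p there was that of Ndufa10, a subunit of complex I, with -0.25 ± 0.11 (SE, adjusted p = 0.125).

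Among 28 tested genes of sterol and fatty acid synthesis, 4 were lower in KO cells on HFD, close to the background of 11.4%, and 10 were higher in KO cells on SD, where the background was 14.3%. In the interaction, 7 had a negative and 1 a positive interaction, with a median of -0.36. In 6 of the 7 WT SD was low and apart, and in 1, Idi1, KO SD was high and apart. The KO means differed between diets here too. The list's median HFD-against-SD log2 difference was -0.38 in KO cells and 0.14 in WT cells. Over all genes tested it was -0.00 and -0.02. The 95% interval of the KO difference was -0.87 to -0.26 for Msmo1, -0.83 to -0.21 for Hmgcs1 and -1.04 to -0.14 for Fdps. None of these KO differences passed by edgeR (adjusted p of 0.38 or more). Msmo1 averaged 48.8 ± 4.36 CPM in KO HFD, 68.3 ± 3.61 in WT HFD, 72.1 ± 16.5 in KO SD and 42.4 ± 7.60 in WT SD cells (SD, n = 4 each), so KO cells lay below WT cells on HFD and above them on SD. Its KO-against-WT difference was -0.48 ± 0.14 (SE, adjusted p = 0.0178) on HFD and 0.76 ± 0.14 (SE, adjusted p = 6.89e-04) on SD, with an interaction of -1.25 ± 0.20 (SE, adjusted p = 5.49e-04). Hmgcs1, an early enzyme of the mevalonate pathway, averaged 43.2 ± 6.39 CPM in KO HFD, 60.3 ± 9.27 in WT HFD, 61.8 ± 14.4 in KO SD and 38.5 ± 1.22 in WT SD cells, with -1.16 ± 0.20 (SE, adjusted p = 0.00111). Fdps and Sqle had -1.35 (adjusted p = 0.0057) and -1.76 (adjusted p = 0.0059). The positive member was Scd1, a fatty acid desaturase, at 2.32 (adjusted p = 0.00609), with WT HFD low.

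The Hmgcs1 promoter is shown because SREBP, which activates sterol synthesis, binds a sterol response element, TCACNCCAC. Its 250 bases before the RefSeq start lie at chr13:119690101-119690350, plus strand in GRCm38.p6, with the match in capitals.
Hmgcs1: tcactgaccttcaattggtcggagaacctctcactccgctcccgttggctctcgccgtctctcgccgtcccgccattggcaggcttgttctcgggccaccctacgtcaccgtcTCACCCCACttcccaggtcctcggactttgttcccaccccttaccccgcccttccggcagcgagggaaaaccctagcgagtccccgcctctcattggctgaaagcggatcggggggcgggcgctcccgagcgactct
The match begins 137 bases before the start site. The motif was found on either strand in 346 of 32851 windows (1.05%). Of the 7 sterol and fatty acid synthesis genes with a negative interaction, 4 had a promoter entry, and Hmgcs1 held it.

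The KO groups made few interactions clear. KO HFD stood apart for 3 genes, 1 high and 2 low, and KO SD for 12, 4 high and 8 low. Named by rule, Tubd1 (chr11:86544991-86571608), delta tubulin, had 11.7, 9.54, 9.44 and 9.94 CPM in KO HFD, 6.89, 6.60, 6.02 and 5.87 CPM in WT HFD, 6.09, 8.62, 7.34 and 5.51 CPM in KO SD and 6.61, 8.62, 8.17 and 7.12 CPM in WT SD libraries. KO HFD libraries lay above all others, with an interaction of 0.82 ± 0.21 (SE, adjusted p = 0.0155). Dicer1 (chr12:104687740-104751968), which cuts microRNA precursors, had 15.2, 20.5, 19.8 and 19.5 CPM in KO HFD, 24.6, 23.3, 25.5 and 23.5 CPM in WT HFD, 22.8, 24.6, 22.8 and 26.4 CPM in KO SD and 20.8, 21.4, 24.5 and 22.4 CPM in WT SD libraries. KO HFD lay below all others, with -0.48 ± 0.14 (SE, adjusted p = 0.0249). Leaving out 1 library gave 1 (without WT SD replicate 3) to 7 (without KO HFD replicate 4) genes for KO HFD, and 5 without KO SD replicate 1.

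For KO SD, Idi1 (chr13:8885606-8892396), an isomerase of the mevalonate pathway, had 32.97, 19.2, 20.99 and 37.1 CPM in KO HFD, 35.2, 25.7, 30.3 and 36.2 CPM in WT HFD, 35.5, 56.7, 41.6 and 63.5 CPM in KO SD and 36.7, 22.1, 23.98 and 21.5 CPM in WT SD libraries. KO SD was highest on average, but WT SD replicate 1, WT HFD and KO HFD reached into its range, and the interaction was -1.13 ± 0.32 (SE, adjusted p = 0.0297). Aacs (chr5:125475873-125517405), which makes acetoacetyl-CoA for sterol synthesis, had 19.5, 16.997, 16.7 and 22.4 CPM in KO HFD, 20.3, 18.5, 20.4 and 20.9 CPM in WT HFD, 23.9, 37.6, 26.8 and 31.1 CPM in KO SD and 23.99, 16.8, 18.1 and 17.5 CPM in WT SD libraries, with -0.73 ± 0.20 (SE, adjusted p = 0.0242). Stard4, a sterol carrier, and Adrbk2, a G-protein-coupled receptor kinase, were high in KO SD with -0.80 (adjusted p = 0.0368) and -0.71 (adjusted p = 0.0354). On the low side, Pdk4 (chr6:5483351-5496278), a pyruvate dehydrogenase kinase that favours fat oxidation, had 17.1, 24.7, 52.1 and 21.2 CPM in KO HFD, 18.5, 28.03, 38.8 and 28.2 CPM in WT HFD, 20.6, 3.68, 10.9 and 2.75 CPM in KO SD and 21.9, 59.5, 38.1 and 60.04 CPM in WT SD libraries. KO SD replicate 1 lay within the range of the other groups, and the interaction was 2.26 ± 0.70 (SE, adjusted p = 0.0402). Etfb (chr7:43444072-43457800), which carries electrons from fat oxidation, had 106, 109, 114 and 112 CPM in KO HFD, 108, 108, 109 and 96.5 CPM in WT HFD, 94.02, 74.6, 75.2 and 80.5 CPM in KO SD and 98.9, 118, 90.9 and 98.2 CPM in WT SD libraries, with 0.39 ± 0.12 (SE, adjusted p = 0.0449). Aaed1 had 0.44 (adjusted p = 0.0313). Acot1, an acyl-CoA thioesterase, was low in KO SD as a mixed gene, at 1.49 ± 0.349 CPM in KO HFD, 2.92 ± 0.722 in WT HFD, 0.543 ± 0.243 in KO SD and 3.69 ± 0.608 in WT SD cells, with 1.79 (adjusted p = 0.00872).

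Several KO SD calls depended on single libraries. Among the fits that left out 1 library the call was lost in 2 of 16 for Aacs, 7 for Idi1, 10 for Stard4, 9 for Adrbk2, 9 for Aaed1, 10 for Pdk4 and 14 for Etfb. The adjusted p reached at most 0.105. The number of KO SD genes was 3 without WT SD replicate 2, 4 without WT SD replicate 4 and 24 without KO SD replicate 1. It was 5 without KO HFD replicate 3, WT HFD replicate 3 or WT HFD replicate 4, 6 without WT HFD replicate 2, 7 without KO SD replicate 2, and 19 without KO HFD replicate 4.

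The genotype difference itself was compared diet by diet. KO against WT passed for 3152 genes on HFD (24%; 1648 higher, 1504 lower) and 3679 on SD (28%; 1884 higher, 1795 lower). Among the 1855 interaction genes, the genotype difference passed on HFD alone for 680, on SD alone for 720, on both in the same direction for 143, on both in opposite directions for 207, and on neither for 105. Of the 207, KO was lower on HFD and higher on SD for 108, and higher on HFD and lower on SD for 99. Igf2bp2, Lpl, Soat1, Msmo1 and Hmgcs1 were among the 108, and Retnla, Mgl2, Ang, Gypc and Cxcl12 among the 99. On the diet side, the 95% interval of the KO log2 difference between HFD and SD was 0.12 to 0.71 for Trem2, -1.03 to 0.09 for Lpl, -0.54 to 0.95 for Retnla and -0.03 to 2.62 for Gpnmb. In WT cells the corresponding differences were 2.101 (adjusted p = 4.01e-08), 2.23 (adjusted p = 1.18e-05), -3.82 (adjusted p = 1.87e-06) and 7.04 (adjusted p = 2.81e-06). Each lay outside the KO interval, which follows from the called interaction by which these genes were picked and is no further test.

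**Figure D4:**
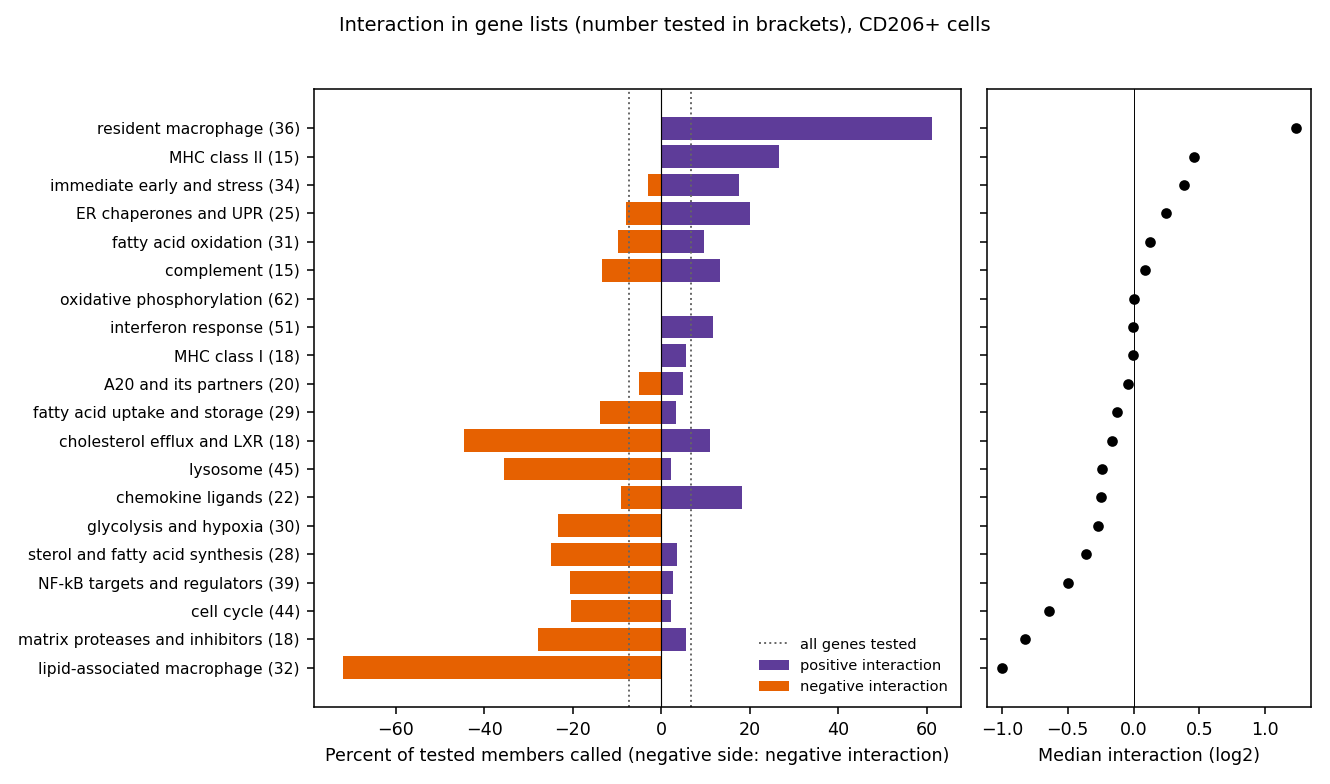
Share of tested members of each gene list with a positive (right) or negative (left) interaction, in percent, and the median interaction of the list, with the number tested in brackets; dotted lines mark the shares over all genes tested. The lipid-associated list (23 of 32 negative) and the resident list (22 of 36 positive) lie at the ends.

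Markers of other cell types moved with the groups in part, and their part in the interactions was not tested. Summed levels take all listed markers found among the counted features, also those with too few counts to test. Over all genes tested the interaction was positive for 6.77% and negative for 7.33%. Of 18 tested stromal markers, 6 had a negative and 0 a positive interaction, and their summed level ranged over 409 to 464 CPM in KO HFD, 692 to 2914 in WT HFD, 379 to 537 in KO SD and 543 to 1341 in WT SD libraries. Col3a1 and Col1a1, fibrillar collagens, had -1.69 (adjusted p = 0.0454) and -2.23 (adjusted p = 0.026), lost in 13 and 3 of the 16 fits that left out 1 library. This stands beside the WT HFD high genes, Mmp2 among them. Of 15 adipocyte markers, 7 were positive and 1, Lpl, negative. Their sum, to which Lpl gave most in WT HFD, ranged over 917 to 1576 CPM in KO HFD, 2643 to 4026 in WT HFD, 1251 to 1739 in KO SD and 1105 to 1530.2 in WT SD libraries. Cfd (chr10:79890853-79892655), adipsin, had 46.8, 19.4, 31.9 and 14.5 CPM in KO HFD, 0.711, 0.562, 0.253 and 0.148 CPM in WT HFD, 25.9, 48.02, 27.7 and 27.3 CPM in KO SD and 13.1, 9.19, 14.9 and 23.7 CPM in WT SD libraries, with WT HFD under 1 CPM and an interaction of 4.94 ± 0.62 (SE, adjusted p = 8.01e-05). Car3, Adipoq and Pck1 had 3.15 (adjusted p = 1.05e-04), 2.32 (adjusted p = 0.00553) and 4.97 (adjusted p = 3.96e-05).

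Endothelial markers, 1 of 14 positive, summed to 239 to 312 CPM in KO HFD, 174 to 552 in WT HFD, 226 to 269.9 in KO SD and 438 to 527 in WT SD libraries. Mast cell markers, 0 of 7 called with a median interaction of -2.74, summed to 2.38 to 47.5 CPM in KO HFD, 23.4 to 132 in WT HFD, 2.37 to 22.1 in KO SD and 4.60 to 14.2 in WT SD libraries. T cell markers, 1 of 11 positive, had 9 of 11 higher in KO cells on HFD, 7 higher and 2 lower on SD, and summed to 90.5 to 183 CPM in KO HFD, 16.8 to 28.4 in WT HFD, 114 to 183 in KO SD and 33.2 to 53.7 in WT SD libraries. Dendritic cell markers, 5 of 16 positive and 1 negative, summed to 590.2 to 694 CPM in KO HFD, 487 to 538 in WT HFD, 721 to 791 in KO SD and 761 to 811 in WT SD libraries. The T cell marker called was Cd2, at 3.67 (adjusted p = 4.14e-04), highest in WT SD. Cd2 was the largest part of the T cell sum in WT SD, with 1467 counts. Cd4 was the largest part in KO cells, with 4823 counts in KO HFD and 7252 in KO SD. Cd3e had 1000 counts in KO HFD, 509 in KO SD and 80 in WT SD, so the sum does not stand for all its members. The dendritic cell markers included Cd209a, which the resident list also holds, and Siglech, at 2.65 (adjusted p = 3.50e-04). Eosinophil markers, 1 of 4 positive and 1 negative, summed to 3.76 to 6.27 CPM in KO HFD, 12.9 to 20.8 in WT HFD, 2.59 to 4.59 in KO SD and 15.1 to 33.3 in WT SD libraries, beside which Rnase2a was high in WT SD. The positive one, Ear2, had 3.57 (adjusted p = 0.00118). Ear2 gave most of the WT SD sum, with 1782 counts in WT SD and 274 in WT HFD. Ccr3 gave most of the WT HFD sum and went the other way, with 1025 counts in WT HFD and 81 in WT SD. The sum thus does not stand for the list as a whole. Monocyte markers had 1 negative of 16, and neutrophil (4 tested), NK cell (7), mesothelial (8) and erythroid (1) markers had 0 called. For endothelial and monocyte markers, 1 call was near the shares over all genes tested. B cell markers had 1 negative of 7, Cd22. Among 10 general macrophage markers 3 were negative: Adgre1, which encodes F4/80, at -0.80 (adjusted p = 0.00106) with WT SD low, Cd68 at -0.41 (adjusted p = 0.0143) with WT HFD high, and Fcgr1 at -0.61 (adjusted p = 0.0282). Their sum ranged over 18621 to 23979 CPM in KO HFD, 22407 to 24665 in WT HFD, 19343 to 22966 in KO SD and 20230.4 to 24792 in WT SD libraries.

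Whether the interaction differed in CD11c+ cells was tested in a fit to all 32 libraries. These came from the same sort of mice in the same 4 groups, and it is not given whether the same mice yielded both populations. In CD11c+ cells alone the interaction passed for 3877 of 13453 genes (28.8%). Of the 1855 genes of CD206+ cells, 968 also passed there with the same sign and 50 with the opposite sign. The shared genes made up 54.9% of the CD206+ list and 26.3% of the CD11c+ list. The difference between populations passed for 1295 genes (9.63%), 702 positive (5.22%) and 593 negative (4.41%), and for 309 of the 1855. With libraries of the same group and number in both populations taken as pairs (a replicate block), it passed for 2077 genes (15.4%), 1063 positive and 1014 negative, 1273 of which also passed without the block, and for 493 of the 1855. The labels do not say whether the numbers pair the populations.

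By kind, the share of clear genes that also passed in CD11c+ cells with the same sign was 262 of 346 for WT HFD high, 111 of 209 for WT HFD low, 89 of 222 for WT SD high and 97 of 209 for WT SD low. Over all genes tested, the CD11c+ interaction passed as positive for 13.9% and as negative for 15%. The same group was apart in the same direction in CD11c+ cells for 289 of the 346, 140 of the 209, 105 of the 222 and 103 of the 209, in that order of kinds. This match was counted for called genes only, so these counts have no background over all genes.

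**Figure D5:**
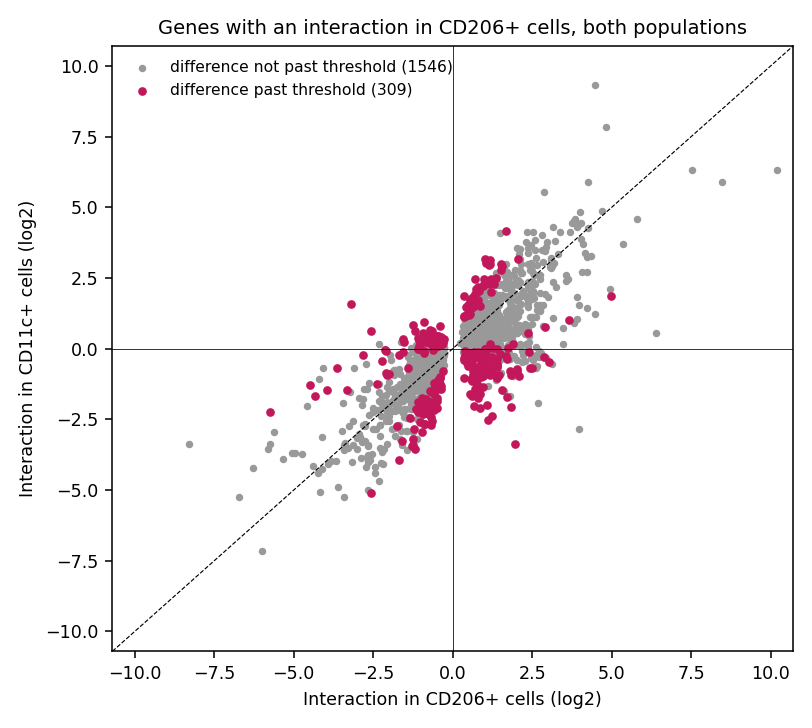
Interaction in CD206+ cells (horizontal) and CD11c+ cells (vertical), both from the fit to all 32 libraries on the log2 scale, for the 1855 genes called in CD206+ cells. The 309 coloured genes differed between populations past the threshold, and the dashed line marks equal interactions.

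Genes with a population difference included, on the positive side, Msr1 and Layn. Msr1 (chr8:39543232-39642750), a scavenger receptor for modified lipoproteins, had 347, 263, 231 and 365 CPM in KO HFD, 208, 198, 248 and 227 CPM in WT HFD, 213, 285, 259.6 and 342 CPM in KO SD and 176, 174, 191 and 205 CPM in WT SD libraries of CD206+ cells, with WT SD lowest on average and an interaction of -0.11 ± 0.21 (SE, adjusted p = 0.781). It averaged 135 ± 14.1 CPM in KO HFD, 209 ± 21.999 in WT HFD, 127 ± 17.5 in KO SD and 30.1 ± 6.39 in WT SD CD11c+ cells (SD, n = 4 each), with WT SD the lowest there, and the difference of interactions was 2.60 ± 0.30 (SE, adjusted p = 8.60e-06). For Layn, a hyaluronan receptor, the difference was 4.18 ± 0.50 (SE, adjusted p = 1.48e-05).

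On the negative side the smallest p-values were those of Ahcyl2, Cnn2 and Pptc7, with differences of -1.53 ± 0.19 (SE, adjusted p = 1.94e-05), -1.49 ± 0.23 (SE, adjusted p = 1.84e-04) and -1.14 ± 0.18 (SE, adjusted p = 1.98e-04). In CD206+ cells Ahcyl2 averaged 87.9 ± 6.92 CPM in KO HFD, 85.3 ± 4.58 in WT HFD, 88.4 ± 4.98 in KO SD and 109 ± 7.67 in WT SD cells. In CD11c+ cells it averaged 198 ± 26.9 CPM in KO HFD, 122 ± 11.8 in WT HFD, 254 ± 25.5 in KO SD and 573 ± 68.8 in WT SD cells (SD, n = 4 each). Among the genes described above, Itgax differed by -2.94 ± 0.64 (SE, adjusted p = 0.00393). It averaged 196 ± 46.5 CPM in KO HFD, 320.3 ± 51.4 in WT HFD, 235 ± 27.1 in KO SD and 237 ± 39.1 in WT SD CD11c+ cells, where CD11c is the sorting marker. Rnase4 differed by 3.05 ± 0.62 (SE, adjusted p = 0.00243) and Ang by 3.15 ± 0.78 (SE, adjusted p = 0.01), with WT SD the lowest group in CD11c+ cells. For Gpnmb, Trem2, Atp6v0d2 and Retnla the difference did not pass, at -2.38 ± 1.08 (SE, adjusted p = 0.173), 1.03 ± 0.47 (SE, adjusted p = 0.173), -0.58 ± 0.66 (SE, adjusted p = 0.657) and 0.16 ± 0.81 (SE, adjusted p = 0.943). The Gpnmb difference passed with the replicate block, at -2.50 (adjusted p = 0.0381), and without KO HFD replicate 2 of CD206+ cells, at -3.58 (adjusted p = 0.0115). The Trem2 difference passed without WT SD replicate 4 of CD11c+ cells, at 1.33 (adjusted p = 0.0452), and not with the block, at 1.17 (adjusted p = 0.0585).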

How the data were processed

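RNA was sequenced from sorted adipose tissue macrophages. The deposited values are raw counts of reads for every gene, 1 table per library, with no scaling by the authors. Tools named in the submitters' processing notes are TopHat2 2.1.0, SAMtools 0.1.18, Trimmomatic 0.35 and FastQC 0.11.4, with the build mm10 (GRCm38). The sources used here do not give the counter, its strand setting or the annotation. Of 24421 features, 13152 passed edgeR's filterByExpr (minimum count 10) in the 16 CD206+ libraries. The 5 rows per library that name no gene were left out; reads outside features were 7.42 to 11.1% and ambiguous reads 0.992 to 1.33%.

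Interaction and simple differences came from edgeR 4.0.16 (R 4.3.3; TMM scaling, quasi-likelihood test, 1 mean per group), with Benjamini-Hochberg adjustment over all genes tested and a threshold of 0.05. The difference between populations came from a fit to all 32 libraries with 8 group means (13453 genes). Sorting by group and principal components used log2 CPM with a prior count of 2. Standard errors were taken as the log2 difference over the square root of its F statistic. Libraries of a group differed beyond sampling noise (chi-square per degree of freedom 15.7 to 57.1), so none was taken as a duplicate. Libraries of the same replicate number in different groups were not taken as pairs. The tests were also run on counts simulated from the fitted model itself, which cannot show whether that model holds in these data.

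Genes were named by a rule: Tnfaip3, Lyz2, Mrc1 and Itgax; up to 4 genes of smallest p for each clear kind; up to 5 largest interactions in each direction; up to 3 members of each pathway list (1 where none passed); and up to 3 population differences in each direction, all but the first 4 genes and the list members at 10 CPM or more in the highest group. Other list members, and the promoters, were chosen after their values were seen. Some genes that met the rule are not reported here. The comparison, lists and named genes were chosen with earlier results of these data known. Called gene models (77) were counted and not named. Alternatives were RLE scaling, DESeq2 1.42.0, limma-voom (limma 3.58.1), no filter, all 32 libraries, a replicate block, linear CPM, other sorting rules and leaving out each library, which for the simple differences was added after seeing the data. Gene positions and promoters are from RefSeq (GRCm38.p6), the files' build.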

Additional observations from a re-analysis of the deposited data

Results flagged for a closer look

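The KO-against-WT difference differed between diets for 1855 genes by the interaction test. Between populations, the interaction differed past the threshold for 7 of the 37 genes whose values are given by library: Itgax (-2.94), Dcbld2 (1.01), Tspan32 (-1.10), Ang (3.15), Rnase4 (3.05), Fzd1 (-1.15) and Msr1 (2.60), as CD206+ interaction minus CD11c+ interaction on the log2 scale. Among the 32 fits that left out 1 library, the call was lost in 13 for Dcbld2, 12 for Fzd1 and 1 for Tspan32, and in 0 for the others.

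In 7 of 148 groups of 4 libraries, over those 37 genes, 1 library lay far from the other 3 by Dixon's ratio; chance gives about 1 in 20. These were Igf2bp2 in KO HFD replicate 4 (3.66 CPM), Gpnmb in KO HFD replicate 2 (66.1 CPM), Clec2i in KO SD replicate 1 (60.0 CPM) and Mmp9 in WT SD replicate 4 (695 CPM). The others were Cfd in KO SD replicate 2 (48.0 CPM), Idi1 in WT SD replicate 1 (36.7 CPM) and Etfb in WT HFD replicate 4 (96.5 CPM).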

How the results depend on the processing

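The interaction count of 1855 was 1894 with RLE scaling, 2396 with DESeq2, 1815 with limma-voom, 1689 without the filter, 1595 with all 32 libraries and 1830 with the replicate block, and 1427 to 1961 leaving out 1 library. No gene of the 1855 changed sign in any of these fits, and 1373 to 1854 of them remained called. On linear CPM, 5 had the opposite sign. HFD against SD in KO called 36 genes by DESeq2 and 0 to 6 leaving out 1 library; in WT it called 3278 to 4338. KO against WT called 2617 to 3343 on HFD and 2974 to 3783 on SD. Sorting into clear kinds depended on its rule. With the range of the other groups under 0.33 of the distance, KO HFD had 0 genes, WT HFD 354, KO SD 6 and WT SD 256. With 1 in place of 0.33 they had 16, 896, 53 and 834, in the same order. With a rule by tests of the simple differences, WT HFD had 658 and WT SD 657. For a KO group that rule asks for a passing HFD-against-SD difference in KO cells. As 0 genes had one, KO HFD and KO SD could only have 0. With RLE scaling KO HFD had 5. Leaving out 1 library gave 1 to 7 for KO HFD, 434 to 546 for WT HFD, 3 to 24 for KO SD and 327 to 514 for WT SD. The population difference of 1295 genes was 1051 to 1466 leaving out 1 library and 2077 with the replicate block. Libraries of the same number across groups correlated at -0.228 to 0.267, and for number 4 all were positive, at 0.018 to 0.267. Those of the same group and number across populations correlated at -0.049 to 0.468 (over 0.1 in 14 of 16 pairs, and 87.5% of libraries best with their own number). Across populations, libraries of the same number thus varied together in most pairs. The labels name no pairing, and the fit given first takes no account of this shared variation, so counts with the block stand beside it. The population difference of Retnla, which did not pass, ranged over -0.25 to 0.75 leaving out 1 library. The cause of these shifts was not tested. Counts limit low genes: Rnase2a, Mucl1 and Nrcam were near 0 outside 1 group.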
